A study of Arabidopsis thaliana with 6 samples.

Results

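Iron that a plant cell does not use at once is put into ferritin shells or into the vacuole. Described here are 8 genes of these stores in seedlings of Arabidopsis thaliana, the 4 ferritin genes (FER1, FER2, FER3 and FER4) and 4 genes of the vacuolar iron transporter family (VIT1, VTL1, VTL2 and VTL5). They were chosen by name, as the rows whose locus code is that of a member, out of 28141 features, of which 27374 were annotated loci. The choice was made with earlier results of these data known. Each of the 8 had 1 listed transcript, so isoforms could not be compared.

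RNA of whole Col-0 plants, harvested 5 days old from MS plates kept at 23 °C with 16 h of light and 8 h of dark, was sequenced after depletion of ribosomal RNA. The 6 libraries form 2 groups of 3, labelled wild-type and fip37-4 LEC1:FIP37. The FIP37 protein belongs to the enzyme complex that puts N6-methyladenosine into mRNA, fip37-4 is a mutant allele of it, and embryos that lack FIP37 do not survive. The second group also carries FIP37 under the promoter of LEC1, a regulator of embryo development, which lets mutant plants be studied after germination. The comparison asks how RNA levels differ between these seedlings and wild-type. Levels are in FPKM, the fragments of a transcript relative to its length and to all mapped fragments of the library. In bulk samples fewer cells of a type and less RNA per cell cannot be told apart. Whether the replicates are separate sowings is not stated in the labels. The p-values therefore set a difference between the groups only against the spread among these samples, which could be technical spread.

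FIP37 (AT3G54170) was at 8.99, 9.03 and 8.96 FPKM in wild-type and at 80.6, 65.0 and 67.5 FPKM in fip37-4 LEC1:FIP37, and the files do not separate the transgene from the endogenous gene. Every direction given is therefore that of libraries labelled fip37-4 LEC1:FIP37 against libraries labelled wild-type. Markers of the whole plant were present in every library. The sum of 5 genes of photosynthetic tissue was 14778 to 15068.3 FPKM in wild-type and 22574 to 25946.5 FPKM in fip37-4 LEC1:FIP37. Sums of 4 genes each were 2.11 to 2.43 and 4.07 to 4.28 FPKM for root hairs, 28.5 to 30.3 and 20.0 to 21.5 FPKM for the endodermis, and 69.4 to 73.3 and 77.5 to 83.5 FPKM for the stele. EXPA7 made up most of the root hair sum in every library and was called higher. RHD6 was called higher too but was below 0.5 FPKM in every wild-type library, and COBL9 and LRX1 were not tested. Within the endodermis list CASP1 and CASP2 fell, SCR rose and MYB36 was not called. SCR lost its call when libraries were scaled to nuclear loci (0.25 on the log2 scale, limma adjusted p = 0.0548). It also lost it when a trend with transcript length was removed (0.19, adjusted p = 0.0592). Within the stele list PHO1 and TMO5 rose while SUC2, the largest part of its sum, and APL were not called. After quantile normalization the photosynthetic markers RBCS1A, LHCB2.1 and PSAD-1 were at 0.28, 0.27 and 0.15 on the log2 scale, still called, and LHCA1 was at 0.094 with no call (limma adjusted p = 0.107). The value of the remaining photosynthetic marker, LHCB1.1, under this setting is not given here. The share of the summed FPKM held by organelle genes was 50.7% to 51.2% and 56.9% to 60.1%. The part of these differences in the results that follow was not tested, apart from a scaling to nuclear genes. Fragment numbers are not stated, but the lowest values came in steps that fit single fragments, and for a transcript 1000 nt long 1 fragment was worth 0.0297 to 0.0418 FPKM.

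Ferritin is a hollow protein shell, in plants mostly inside plastids, that oxidises ferrous iron and holds it as a ferric mineral. FER1, FER3 and FER4 are the ferritin genes of leaves, roots and flowers, and FER2 is the one of seeds. The RNA of FER1, FER3 and FER4 is known to rise when iron is in excess and to be held down when it is scarce. Transporters of the VIT family carry ferrous iron from the cytosol into the vacuole. VIT1 places iron around the provascular strands of the embryo. The shorter VTL proteins, related to a nodulin, lower iron toxicity when put into yeast.

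The stretches of sequence below are shown because, within the windows searched, they set FER1 apart from FER3 and FER4 and pair VTL1 with VTL2. They are from RefSeq (assembly TAIR10.1), and the files themselves hold no coordinates. Of FER1 a site of 30 bases is given, on the minus strand of chr5:229763-229792. It lies in a 5′ leader annotated as 457 nt long. Its capitals, which begin 267 nt after the annotated start, mark the iron-dependent regulatory sequence (IDRS), the element through which FER1 is repressed when iron is low.
FER1: ggatgtagCACGAGGCCGCCACacgcccct
These 14 letters, searched on both strands, were found in the 500 nt after the annotated start of 1 of 27444 genes (0.00364%), which was FER1. The first 6 of them, CACGAG, stood in 13.3% of these windows, and FER1 was again the one member with a match. The next lines give the 150 bases before the annotated start of FER3 (chr3:20816036-20816185, minus strand) and FER4 (chr2:16833295-16833444, minus strand), with a G-box (CACGTG, a hexamer that basic helix-loop-helix factors bind) and a run of 13 shared letters in capitals.
FER3: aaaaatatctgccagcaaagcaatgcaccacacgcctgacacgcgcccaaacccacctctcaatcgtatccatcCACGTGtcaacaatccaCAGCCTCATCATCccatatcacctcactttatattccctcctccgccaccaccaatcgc
FER4: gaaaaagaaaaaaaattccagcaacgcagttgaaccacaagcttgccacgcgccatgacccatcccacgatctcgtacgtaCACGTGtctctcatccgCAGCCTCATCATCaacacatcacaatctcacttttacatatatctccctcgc
The G-box began 76 bases before the start in FER3 and 69 in FER4, and no other member had one in this window. It was present on either strand in 4.78% of 27443 windows of this length. The shared run, CAGCCTCATCATC, does not overlap the G-box, began 59 and 52 bases before the start, and was found in 2 windows of all, these 2. VTL1 (chr1:7404178-7404327, plus strand) and VTL2 (chr1:28829093-28829242, plus strand) share a run of 15 letters, in capitals.
VTL1: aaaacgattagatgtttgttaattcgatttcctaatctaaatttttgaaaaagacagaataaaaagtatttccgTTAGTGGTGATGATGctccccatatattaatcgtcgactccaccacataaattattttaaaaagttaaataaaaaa
VTL2: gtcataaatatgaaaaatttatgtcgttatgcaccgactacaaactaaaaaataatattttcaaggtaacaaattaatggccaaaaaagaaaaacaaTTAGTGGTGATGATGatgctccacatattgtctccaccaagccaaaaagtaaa
This run, TTAGTGGTGATGATG, began 76 bases before the start of VTL1 and 53 before that of VTL2, and no other of the 27443 windows held it on either strand. Both shared runs were chosen by comparing the pairs, and a match describes letters, not a working site.

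Of the 8 members 7 passed the filter of at least 0.5 FPKM in at least 3 libraries, and all 7 were above 0.5 FPKM in every library. In limma's test with Benjamini-Hochberg adjustment over 19383 tested loci, 5 were lower and 1 higher in fip37-4 LEC1:FIP37 at an adjusted p under 0.05. Of all tested loci 30.9% were lower, 27.6% higher and 58.6% called in either direction. The median log2 fold change was -0.38 over the 7 members and -0.0019 over all tested loci. After quantile normalization 2 members were lower (FER4 and VTL2) and 0 higher, against 3 and 1 at an unadjusted p under 0.05. The groups did not overlap for 6 of the 7 members, against 65.9% of all tested loci. Fold changes are on the log2(FPKM + 0.5) scale, on which changes of low genes look smaller than they are, and are those of fip37-4 LEC1:FIP37 over wild-type.

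**Figure D1:**
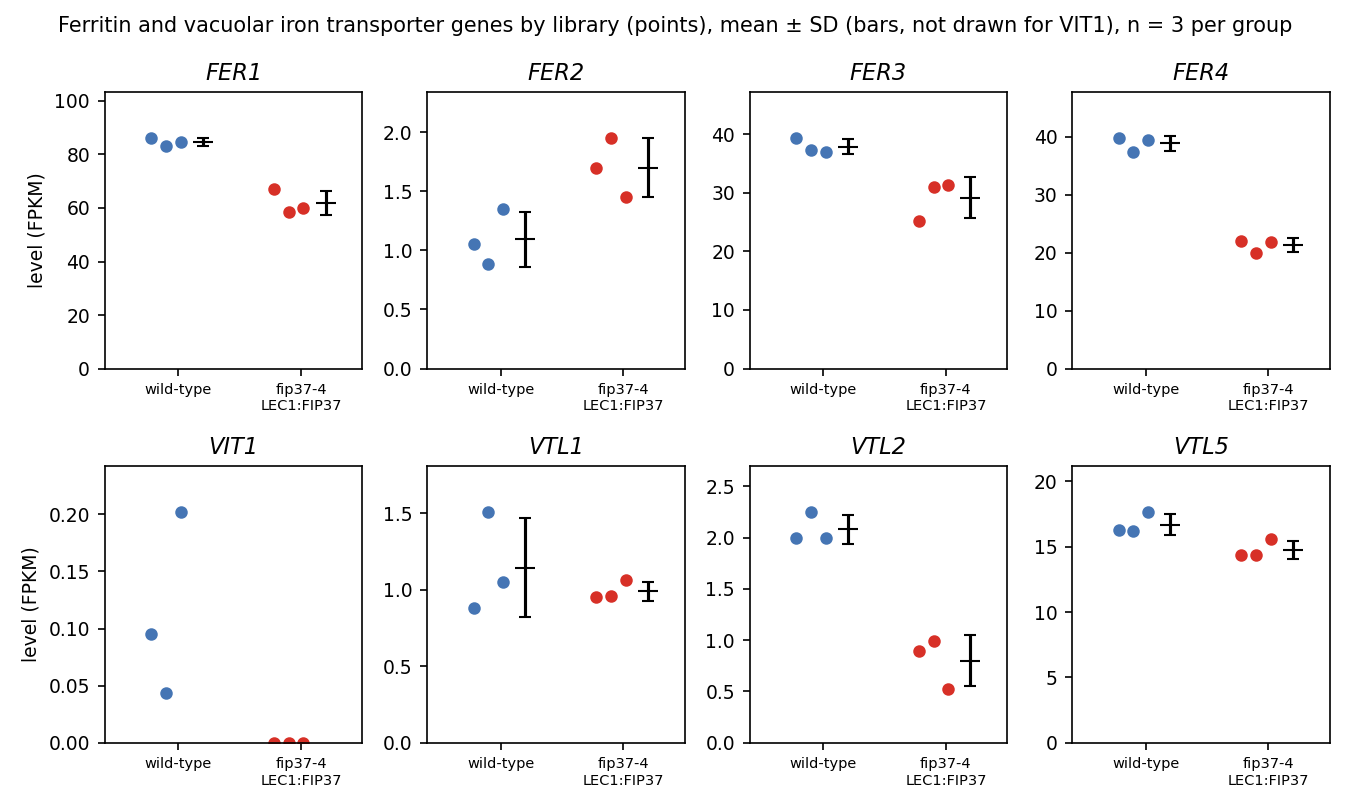
Level of each of the 8 genes (y axis, FPKM, from 0) in the 3 wild-type (blue) and the 3 fip37-4 LEC1:FIP37 libraries (red), with the mean and SD of each group in black. FER1, FER3, FER4, VTL2 and VTL5 lie lower in every fip37-4 LEC1:FIP37 library, FER2 lies higher, VTL1 overlaps, and VIT1 is listed at 0 in the fip37-4 LEC1:FIP37 libraries and has no bars.

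FER1 (AT5G01600; chromosome 5, 227953 to 230051, minus strand), the most abundant ferritin RNA, was at 86.1, 83.3 and 84.5 FPKM in wild-type and at 67.2, 58.5 and 59.9 FPKM in fip37-4 LEC1:FIP37. Every fip37-4 LEC1:FIP37 library was below every wild-type library, and the wild-type libraries lay close together. The means were 84.7 ± 1.41 and 61.9 ± 4.65 FPKM (SD, n = 3 each), so that 73.1% of the wild-type level was left. FER1 fell by 0.45 ± 0.058 on the log2 scale (SE; 95% confidence interval -0.59 to -0.32; limma adjusted p = 0.00025). Over 16 other settings its adjusted p ran from 3.04e-06 to 0.160, the highest after quantile normalization, where the log2 fold change was -0.14 and the call was lost. AT5G01595 lies on the opposite strand over 1334 nt of FER1 and has no row in the files. The libraries were strand-specific per the labels' protocols, but the sources used here do not say whether strand was used in counting. If it was not, reads of this locus may be counted as FER1.

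FER4 (AT2G40300; chromosome 2, 16831109 to 16833294, minus strand), whose product is found in plastids and mitochondria, fell most among the ferritin genes. It was at 39.8, 37.3 and 39.5 FPKM in wild-type and at 22.1, 20.0 and 21.9 FPKM in fip37-4 LEC1:FIP37. The lowest wild-type library was 15.2 FPKM above the highest of the other group. The means were 38.9 ± 1.35 and 21.3 ± 1.18 FPKM (SD, n = 3 each), with 54.8% of the wild-type level left, and the log2 fold change was -0.85 ± 0.054 (SE; 95% confidence interval -0.98 to -0.73; limma adjusted p = 6.42e-06). The call held under all 16 other settings, with log2 fold changes of -0.88 to -0.67. AT2G40290, on the same strand, overlaps FER4 by 118 nt, and its level was 27.8 to 29.9 FPKM in wild-type and 19.1 to 21.6 FPKM in fip37-4 LEC1:FIP37.

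FER3 (AT3G56090; chromosome 3, 20813904 to 20816035, minus strand), a plastid ferritin gene close in sequence to FER4, was at 39.3, 37.3 and 37.0 FPKM in wild-type and at 25.2, 30.9 and 31.4 FPKM in fip37-4 LEC1:FIP37. The groups did not overlap, and replicate 1 of fip37-4 LEC1:FIP37 was the lowest library. In that same library FER1 was the highest of its group, so that FER1 stood at 2.66 times FER3 there and at 1.89 and 1.91 times in replicates 2 and 3. The FER3 means were 37.9 ± 1.27 and 29.2 ± 3.43 FPKM (SD, n = 3 each), and FER3 fell by 0.38 ± 0.082 on the log2 scale (SE; 95% confidence interval -0.56 to -0.19; limma adjusted p = 0.00431). Over 16 other settings its adjusted p ran from 0.000417 to 0.0533, the highest after quantile normalization, where the value was -0.19 and the call was lost. Without replicate 1 of fip37-4 LEC1:FIP37 it was -0.28, still called.

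FER3 stood slightly below FER4 in every wild-type library and above it in every fip37-4 LEC1:FIP37 library. The levels of FER3 and FER4 were not tested against each other within a group. The FER3 level was 0.988, 0.998 and 0.936 times that of FER4 in the wild-type libraries and 1.14, 1.55 and 1.44 times in the fip37-4 LEC1:FIP37 libraries. FER1 was 2.16, 2.23 and 2.14 times FER4 in wild-type and 3.04, 2.93 and 2.74 times in the other group. Neither ratio overlapped between the groups. For both, and for the ratio of VTL2 to VTL5 given later, the exact two-sided permutation p was 0.1, the smallest that 3 against 3 libraries allow, and 0.1 after Benjamini-Hochberg adjustment over the 3 ratios, which were picked after the values were seen. The coding sequences of FER3 and FER4 are identical at 79.8% of aligned bases, against 71.5% to 73.2% for the other pairs of ferritin genes. The longest stretch that both transcripts share letter for letter is 32 nt.

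FER2 (AT3G11050; chromosome 3, 3463477 to 3465506, plus strand), the seed ferritin gene, went the other way at a low level. It was at 1.05, 0.882 and 1.35 FPKM in wild-type and at 1.69, 1.95 and 1.45 FPKM in fip37-4 LEC1:FIP37. The groups were 0.106 FPKM apart. An estimate from the fragment steps puts 38, 34 and 46 fragments behind the wild-type values and 57, 79 and 42 behind the others. The means were 1.09 ± 0.235 and 1.70 ± 0.249 FPKM (SD, n = 3 each), and FER2 rose by 0.47 ± 0.13 on the log2 scale (SE; 95% confidence interval 0.16 to 0.77; limma adjusted p = 0.0159). Its call did not hold without wild-type replicate 2 (0.37), without fip37-4 LEC1:FIP37 replicate 2 (0.39), and after quantile normalization (0.34), and over 16 other settings the adjusted p ran from 0.00362 to 0.0594. The sum of 14 embryo and seed markers was 4.85 to 5.26 FPKM in wild-type and 20.3 to 20.7 FPKM in fip37-4 LEC1:FIP37. Of these markers 9 were above 0 in every library and none was at 0 in every library. Most of the sum came from the 5 that were tested and called higher (OLEO1, OLEO2, CRA1, CRC and EM6), of which OLEO1 and CRC had wild-type libraries below 0.5 FPKM, and 4 of the 14 overlapped between the groups. Their part in the FER2 value was not tested.

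Summed over the 4 genes, ferritin RNA was at 166, 159 and 162 FPKM in wild-type and at 116, 111 and 115 FPKM in fip37-4 LEC1:FIP37, which is 70.2% of the wild-type mean. When each library was scaled to the summed FPKM of nuclear loci, the ratio of the means was 0.691 in place of 0.702. FER1 made up 52.1 ± 0.338% of the sum in wild-type and 54.2 ± 3.12% in the libraries of fip37-4 LEC1:FIP37 (SD, n = 3 each). The share of FER4 was 23.9 ± 0.414% and 18.7 ± 0.658%, and that of FER3 was 23.3 ± 0.452% and 25.6 ± 3.40%. FER2 held 0.672 ± 0.141% and 1.49 ± 0.244%. Shares and sums carry no test of their own here.

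**Figure D2:**
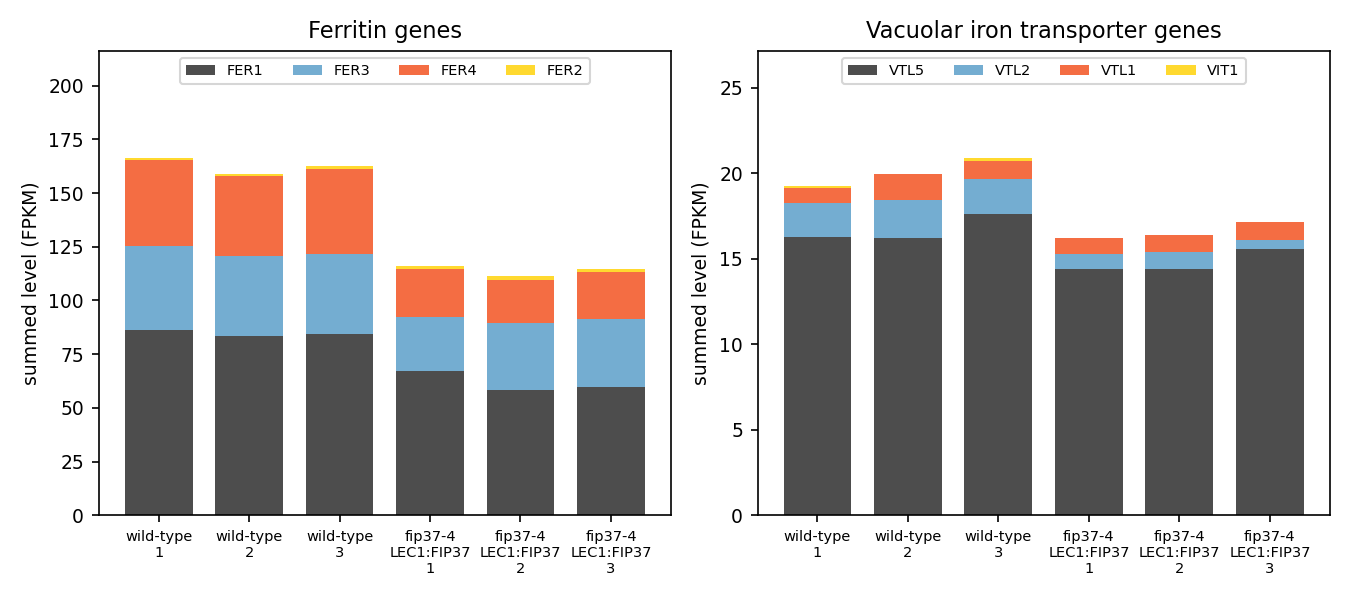
Stacked levels (y axis, FPKM) of the 4 ferritin genes (left) and the 4 vacuolar iron transporter genes (right) in each of the 6 libraries. The ferritin sum is 159 to 166 FPKM in wild-type and 111 to 116 FPKM in fip37-4 LEC1:FIP37, with a smaller FER4 segment in the latter, and VTL5 makes up most of the transporter sum in every library.

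VTL5 (AT3G25190; chromosome 3, 9174398 to 9175866, plus strand), a member of the VTL group, was the most abundant transporter RNA of the family. It was at 16.3, 16.2 and 17.6 FPKM in wild-type and at 14.4, 14.4 and 15.6 FPKM in fip37-4 LEC1:FIP37. The groups were 0.595 FPKM apart, less than the SD of either group (means 16.7 ± 0.818 and 14.8 ± 0.689 FPKM, SD, n = 3 each). VTL5 fell by 0.17 ± 0.056 on the log2 scale (SE; 95% confidence interval -0.30 to -0.04; limma adjusted p = 0.0282). This call was not stable. It was lost without wild-type replicate 3 (-0.13), without fip37-4 LEC1:FIP37 replicate 2 (-0.15) and after quantile normalization (-0.051), and the sign turned when a trend with transcript length was removed (0.036). Over 16 other settings the adjusted p ran from 0.0203 to 0.555.

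VTL2 (AT1G76800; chromosome 1, 28829243 to 28830278, plus strand), another VTL gene, had a larger log2 fold change than any other tested member, except that FER4 exceeded it with a pseudocount of 1 and without fip37-4 LEC1:FIP37 replicate 3 (-0.84 against -0.78 and -0.87 against -0.84). It was at 2.00, 2.25 and 2.00 FPKM in wild-type and at 0.894, 0.990 and 0.522 FPKM in fip37-4 LEC1:FIP37. The lowest wild-type library was 1.01 FPKM above the highest of the other group, and replicate 3 of fip37-4 LEC1:FIP37, the shallowest library, was the lowest. About 63, 77 and 60 fragments stood behind the wild-type values and 26, 35 and 13 behind the others. The means were 2.08 ± 0.144 and 0.802 ± 0.247 FPKM (SD, n = 3 each), with 38.5% of the wild-type level left, and the log2 fold change was -1.0 ± 0.15 (SE; 95% confidence interval -1.34 to -0.67; limma adjusted p = 0.000478). The call held under all 16 other settings. The log2 fold change ran from -1.31 with a pseudocount of 0.1 to -0.78 with 1.

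VTL1 (AT1G21140; chromosome 1, 7404328 to 7405426, plus strand), the closest relative of VTL2 among the members and a protein of the vacuolar membrane, did not pass the test. It was at 0.878, 1.51 and 1.05 FPKM in wild-type and at 0.949, 0.961 and 1.06 FPKM in fip37-4 LEC1:FIP37. The groups overlapped, and wild-type replicate 2 was the highest library. About 30, 56 and 34 fragments stood behind the wild-type values and 30, 37 and 29 behind the others. The means were 1.14 ± 0.324 and 0.990 ± 0.0611 FPKM (SD, n = 3 each), and the log2 fold change was -0.12 ± 0.14 (SE; 95% confidence interval -0.45 to 0.20; limma adjusted p = 0.476). The interval holds no change as well as a fall of the size found for VTL5, and it does not reach that of VTL2. The coding sequences of VTL1 and VTL2 are identical at 77.1% of aligned bases, with a longest common stretch of 24 nt between the transcripts. VTL5 shares 70.7% with VTL1 and 68.4% with VTL2.

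VIT1 (AT2G01770; chromosome 2, 334663 to 336462, minus strand), the transporter that loads vacuoles of the embryo, was close to the limit of detection. It was listed at 0.0954, 0.0435 and 0.202 FPKM in wild-type and at 0 in all 3 fip37-4 LEC1:FIP37 libraries. Allowing for depth, the wild-type values stand to one another as 2, 1 and 4 within 5%, as steps of single fragments would. The estimate used for the other genes puts 2.5, 1.2 and 5.0 fragments behind them, which are not whole numbers. With so few fragments no fold is given. VIT1 was below the filter. With no filter limma gave it an adjusted p of 0.0381 over 24198 loci, a value that rests on these few fragments. AT2G01760, on the opposite strand, overlaps VIT1 by 98 nt and was at 6.33 to 6.75 FPKM in wild-type and 7.01 to 7.56 FPKM in fip37-4 LEC1:FIP37.

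The 4 transporter genes together were at 19.2, 20.0 and 20.9 FPKM in wild-type and at 16.2, 16.4 and 17.2 FPKM in fip37-4 LEC1:FIP37, or 82.8% of the wild-type mean. VTL5 made up 83.3 ± 2.03% of this sum in wild-type and 89.2 ± 1.43% in the libraries of fip37-4 LEC1:FIP37 (SD, n = 3 each), and VTL2 10.4 ± 0.843% and 4.87 ± 1.61%. VTL2 stood at 0.123, 0.139 and 0.113 times VTL5 in wild-type and at 0.0622, 0.0687 and 0.0335 times in the others, so that the relative level of VTL2 was lower in every fip37-4 LEC1:FIP37 library. This ratio is the third of those tested above.

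Ordered by level in wild-type, FER1 came first and was followed by FER4 and FER3, whose ranges overlapped, and then by VTL5 and VTL2. VTL1 and FER2 followed with overlapping ranges, and VIT1 was last. In fip37-4 LEC1:FIP37 FER1 was again first, FER3 stood above FER4 with no overlap, VTL5 came next, and FER2 stood above VTL1 and VTL2, whose ranges overlapped. Among all tested loci the wild-type level of FER1 was above 95.1%, those of FER4 and FER3 above 89.6% and 89.4%, and that of VTL5 above 77.0%. VTL2, VTL1 and FER2 were above 22.3%, 12.1% and 11.5%. FPKM values are per length, which allows an approximate order between genes, though reads of loci that overlap FER1 and FER4 could add to their values.

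Of 4 other genes with the same transporter domain, 2 were tested and 1 was lower, against 30.9% of all tested loci. The loci AT3G43630 and AT3G43660 were listed at 0 except for 0.0431 FPKM of AT3G43660 in wild-type replicate 1, about 1 fragment. MEB1 (AT4G27860), a membrane protein of endoplasmic reticulum bodies, fell from 11.2 ± 0.354 to 9.20 ± 0.133 FPKM (SD, n = 3 each), by 0.27 ± 0.049 on the log2 scale (SE; limma adjusted p = 0.00143). Its relative MEB2 (AT5G24290) was at 2.81 ± 0.211 and 2.73 ± 0.0439 FPKM and was not called (adjusted p = 0.726).

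Outside the members, 77 genes of iron handling were followed, in 7 lists and the 4 domain relatives. Of the 71 tested, 35 (49.3%) were higher and 21 (29.6%) lower, against 27.6% and 30.9% of all tested loci. The lists were chosen with earlier results of these data known, so this contrast is not an independent result. Among the 35 were 9 with a wild-type library below 0.5 FPKM and none of fip37-4 LEC1:FIP37 below it, whose calls the filter favours. After quantile normalization 36 were higher and 14 lower. Among 13 genes that regulate ferritin and iron storage, all tested, 5 were higher and 4 lower, with a median of 0.14. With the length trend removed 4 were higher and 2 lower, and the median was 0.055. ILR3 (AT5G54680), a basic helix-loop-helix factor that represses ferritin genes when iron is low, fell from 41.8 ± 1.83 to 36.1 ± 2.70 FPKM, by 0.21 on the log2 scale (limma adjusted p = 0.0198), but was at -0.0074 after quantile normalization (adjusted p = 0.919) and at -0.083 with the length trend removed (adjusted p = 0.249). Its partner PYE (AT3G47640) rose from 3.43 ± 0.345 to 4.33 ± 0.378 FPKM, by 0.30 (adjusted p = 0.0199). BTS (AT3G18290), a ubiquitin ligase that acts on such factors, rose from 13.7 ± 0.745 to 18.1 ± 0.907 FPKM, by 0.39 (adjusted p = 0.000538), and by 0.19 with the length trend removed (adjusted p = 0.0208). The loci AT1G74770 and AT1G18910 rose by 1.16 and 0.47, and BHLH104 (AT4G14410), an activator of iron deficiency genes, fell by 0.47 on the log2 scale.

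Several genes of iron acquisition were below 0.5 FPKM in wild-type. Of 10 deficiency regulators of the root 9 were tested and called higher, and of 9 uptake genes 7, against 27.6% of all tested loci. All wild-type libraries were below 0.5 FPKM for 4 of the 9 and 3 of the 7, and for AT2G30766 1 wild-type library was, and the filter favours calls of such genes. The 4 and 4 that were at or above 0.5 FPKM in every library were called higher as well. IRT1 (AT4G19690), the root importer of ferrous iron, was at 0.354 ± 0.0874 FPKM in wild-type and 24.5 ± 3.12 FPKM in the other group, and FRO2 (AT1G01580), the ferric chelate reductase, at 0.223 ± 0.0582 and 5.92 ± 0.125 FPKM. Their log2 fold changes were 4.87 and 3.15, and the changes of CYP82C4 (AT4G31940), an enzyme of coumarin synthesis, and PDR9 (AT3G53480), a coumarin exporter, were 4.20 and 1.02. The loci AT2G30766 and AT1G47395 rose by 3.50 and 1.99, and the transcription factor genes BHLH38 (AT3G56970) and BHLH39 (AT3G56980) by 2.18 and 1.56 on the log2 scale. FER1 RNA was 334, 194 and 225 times IRT1 RNA in the wild-type libraries and 2.45, 2.76 and 2.40 times in fip37-4 LEC1:FIP37.

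Other genes of vacuolar metal transport include both exporters and importers. Of 6 tested genes of other vacuolar metal transport 4 were higher and 1 lower, with a median of 0.36. Of all tested loci 27.6% were higher and 30.9% lower. NRAMP3 (AT2G23150) and NRAMP4 (AT5G67330), which release iron from the vacuole, rose from 4.35 ± 0.337 to 6.37 ± 0.618 FPKM and from 12.1 ± 0.416 to 14.2 ± 1.12 FPKM, by 0.50 and 0.22 on the log2 scale (limma adjusted p = 0.00117 and 0.0161). ZIF1 (AT5G13740), which moves nicotianamine into the vacuole, rose by 0.96, and MTP3 (AT3G58810), a vacuolar zinc importer, by 0.97. In nicotianamine synthesis and long-distance transport 6 of 11 were higher and 3 lower, with a median of 0.43, and 1 of them, NAS2, was below 0.5 FPKM in every wild-type library. NAS2 (AT5G56080), NAS1 (AT5G04950) and the phloem transporter gene OPT3 (AT4G16370) rose by 2.42, 0.61 and 0.68, and the synthase gene NAS3 (AT1G09240) fell by 1.48 on the log2 scale.

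Many plastid iron genes fell in the same libraries as the plastid ferritin genes. Of 17 genes of chloroplast iron and iron-sulfur assembly, all tested, 11 were lower and 1 higher, with a median of -0.21. Of all tested loci 30.9% were lower and 27.6% higher. After quantile normalization 7 were lower and the median was -0.10. NAP7 (AT3G10670), an ATPase of plastid iron-sulfur assembly, fell from 33.4 ± 1.29 to 17.4 ± 0.179 FPKM, and PIC1 (AT2G15290), a permease of the chloroplast envelope linked to iron import, fell from 46.03 ± 1.32 to 30.1 ± 1.32 FPKM. On the log2 scale these falls were -0.92 and -0.60, and the plastid genes SAPX (AT4G08390), an ascorbate peroxidase gene, and ENH1 (AT5G17170), a rubredoxin gene, fell by 0.80 and 0.73 on the log2 scale. The sum of the photosynthetic markers, given above, was higher in the same libraries. RBCS1A, LHCB2.1, LHCA1 and PSAD-1 had smaller log2 fold changes after quantile normalization. Of 6 mitochondrial iron genes 3 were higher and 1 lower, with a median of 0.07. The scaffold gene ISU1 (AT4G22220) fell by 0.78, the cysteine desulfurase gene NFS1 (AT5G65720) rose by 0.43, and AT2G30160 and the transporter gene ATM3 (AT5G58270) rose by 0.21 and 0.16, a call that ATM3 lost when scaled to nuclear loci (0.14) and with the length trend removed (0.090).

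**Figure D3:**
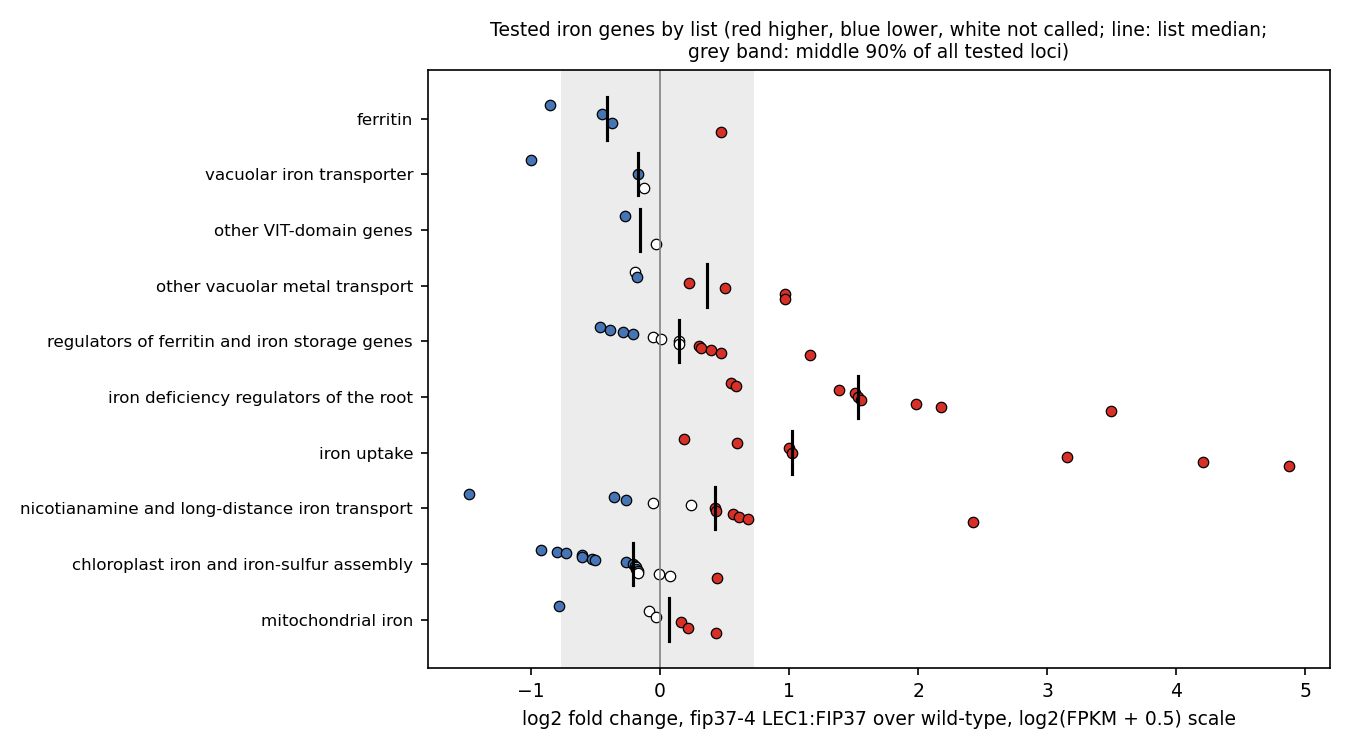
Log2 fold change of fip37-4 LEC1:FIP37 over wild-type (x axis, log2(FPKM + 0.5) scale) for every tested gene of the ferritin, transporter and other iron lists (rows), red where called higher, blue where called lower and white where not called. Black lines are list medians and the grey band holds the middle 90% of all tested loci, which ends at -0.77 and 0.73, and FER4 and VTL2 lie below it and FER1, FER2, FER3, VTL1 and VTL5 within it.

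The loci whose levels followed each member most closely were found among 11198 tested loci with a mean of at least 5 FPKM, by the root mean square difference over the 6 libraries between log2(FPKM + 0.5) values centred on each locus' mean. For FER1 they were J8 (AT1G80920), a J-domain protein gene, and AT2G40660, at 0.017 each. For FER3 they were AT1G78040 and AT5G59140, at 0.022 each, and for FER4 ATOZI1 (AT4G00860) and PAP12 (AT2G27190), a purple acid phosphatase gene, at 0.034 and 0.041. FER2 was nearest to KUP11 (AT2G35060), a potassium transporter gene, and EXO70F1 (AT5G50380), of the exocyst, at 0.083 and 0.084. Only 2 loci were taken per member, and the ferritin genes had none of these in common. VTL2 was nearest to AT5G14105 and LSM8 (AT1G65700), of an RNA-binding ring, at 0.082 and 0.098, VTL5 to AT3G55960 and AT2G30105, at 0.013 and 0.018, and VTL1 to NIP1;2 (AT4G18910), an aquaporin-like channel gene, and AT3G03010, at 0.078 and 0.093. No member was among the nearest loci of another, although FER2, VTL1 and VTL2 were below the level that a nearest locus needed.

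**Figure D4:**
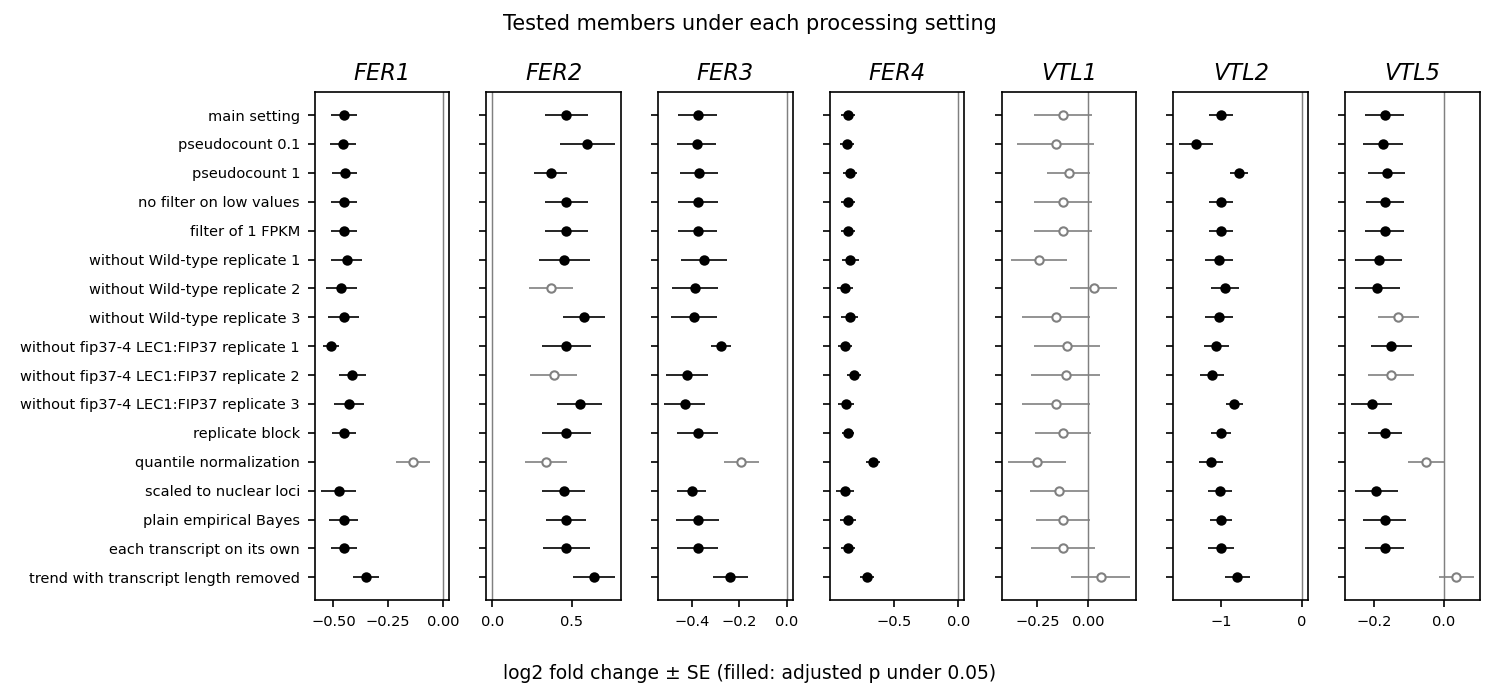
Log2 fold change with its SE (x axis, 1 panel per gene) of the 7 tested members under the main setting and 16 others (y axis), filled where the adjusted p was under 0.05. FER4 and VTL2 are filled in every row, FER1 and FER3 in all but quantile normalization, FER2 and VTL5 lose their call in several rows, and VTL1 is open throughout.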

How the data were processed

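Strand-specific libraries of ribosomal RNA-depleted total RNA were sequenced, per the labels' protocols. The deposited values are FPKM per transcript, made by the authors with TopHat2 2.0.9 and Cufflinks 2.1.1 on build TAIR10, per the submitters' processing notes. Each file lists 36104 transcripts. Isoforms were summed per locus, and symbols, lengths and sequences came from RefSeq TAIR10.1, matched for 26701 loci, whose lengths may differ from the authors' gene models. FPKM are not counts, so log2(FPKM + 0.5) was tested with limma 3.58.1 in R 4.3.3 (mean-variance trend, robust empirical Bayes, no term besides genotype, Benjamini-Hochberg adjustment over 19383 loci with at least 0.5 FPKM in at least 3 libraries), after a check on simulated data. Ratios were tested with SciPy 1.17.1 in Python 3.11.15.

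Relative depth, from the steps of single fragments, was 1.08 and 0.951 of wild-type replicate 1 in the other wild-type libraries and 0.923, 1.12 and 0.792 in fip37-4 LEC1:FIP37. Fragment numbers behind low values are estimates from these steps and the reference lengths.

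The members and the gene lists were chosen with earlier results of these data known. Named are all members, their domain relatives, FIP37, IRT1, FRO2, ILR3, PYE and BTS, of each other iron list up to 4 called genes with the largest absolute log2 fold change, and the 2 loci nearest to each tested member. The alternatives were pseudocounts of 0.1 and 1, no filter and a filter of 1 FPKM, each library left out, a replicate block, quantile normalization, scaling to nuclear loci, plain empirical Bayes, each transcript on its own, and removal of a trend with transcript length.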

Additional observations from a re-analysis of the deposited data

How the results depend on the processing

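Of 112 values (7 tested members under 16 alternatives), 101 kept their direction and their side of the threshold, and FER4 and VTL2 did so under all. The log2 fold changes could not move under no filter, a filter of 1 FPKM, a replicate block or plain empirical Bayes. Nor could they with each transcript on its own, as each member had 1. Only the adjusted p could change under these settings. Quantile normalization gave FER1 -0.14, FER2 0.34, FER3 -0.19 and VTL5 -0.051 with no call (limma adjusted p = 0.160, 0.0594, 0.0533 and 0.438), and with it limma called 0 members higher and 2 lower, against 1 and 3 at an unadjusted p under 0.05. Removal of the trend with transcript length turned VTL1 to 0.061 and VTL5 to 0.036 (adjusted p = 0.743 and 0.555). The cause of these changes was not tested. With 1 library left out, the log2 fold changes ran from -0.51 to -0.41 for FER1, 0.37 to 0.58 for FER2, -0.43 to -0.28 for FER3, -0.88 to -0.81 for FER4, -0.24 to 0.028 for VTL1, -1.11 to -0.84 for VTL2 and -0.21 to -0.13 for VTL5. FER2 lost its call without wild-type replicate 2 or fip37-4 LEC1:FIP37 replicate 2, VTL5 without wild-type replicate 3 or fip37-4 LEC1:FIP37 replicate 2, and VTL1 changed sign without wild-type replicate 2 (0.028). Members called higher then ranged from 0 to 1 (1 at an unadjusted p under 0.05 in both fits with 0) and lower from 4 to 5, and other iron genes from 24 to 34 higher and 17 to 21 lower (36 and 14 after quantile normalization). The filter was applied anew to the libraries kept. Without a fip37-4 LEC1:FIP37 library, genes below 0.5 FPKM in every wild-type library, such as IRT1, FRO2, CYP82C4 and NAS2, were therefore not tested. In those fits 28, 24 and 24 other iron genes were higher, counts that lack such genes.

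Libraries with the same replicate number did not deviate together from their group means (correlations -0.028, -0.049 and -0.057). This cannot show whether they shared a sowing, a plate or a batch, which the labels do not state. With a replicate block, which cannot move the log2 fold changes here, the members' calls were as without it, and 5075 loci were higher and 5804 lower. Depth limits VIT1, FER2, VTL1 and VTL2, whose values rest on few fragments.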
